A study of Homo sapiens with 10 samples.

Results

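The values described here are read counts of 56 genes for DNA repair and replication stress in spheroids of T47D cells, a luminal breast cancer line. The genes were listed by name for their known roles in double-strand break repair, the Fanconi anemia pathway, mismatch and excision repair and the replication checkpoint, a rule that uses no measured value. All 56 of the 56 listed genes were found among the 13920 genes of the count table. They comprise 11 checkpoint and fork protection genes, 8 end resection genes, 10 homologous recombination genes, 5 end joining genes, 6 Fanconi anemia genes, 5 mismatch repair genes, 5 nucleotide excision repair genes and 6 genes of base excision and single-strand break repair.

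RNA came from spheroids at day 4 of culture, in 3 groups. WT cells were the unedited line, and clones A1 and A2 (SAMHD1-KO) derive from a CRISPR-Cas9 construct aimed at exon 5 of SAMHD1, which encodes part of the HD domain. Of the 10 libraries, 4 were WT and 4 clone A1, in experiments 10, 11, 15 and 16, and 2 were clone A2, in experiments 15 and 16. Each knock-out line is 1 clone, so a difference of a line from WT cannot be told apart from a difference of that clone. The labels give separate experiments, and the study's methods describe the sequenced samples of both clones as biological duplicates. Which of the experiments this covers is not said, and p-values measure the spread between these libraries.

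SAMHD1 splits deoxynucleotide triphosphates and so limits the building blocks of DNA. Apart from that enzyme activity, it is known to bring CtIP, the product of RBBP8, to double-strand breaks and to stimulate the nuclease MRE11 at stalled replication forks. Both steps belong to end resection, in which the 5′ strand of a broken end is cut back to leave single-stranded DNA that RPA covers. Resected ends are repaired by homologous recombination, while ends bound by the Ku proteins (XRCC5 and XRCC6) are joined directly. ATM and ATR are the kinases that signal broken ends and RPA-covered DNA to CHEK2 and CHEK1.

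The targeted gene was checked first. SAMHD1 had 53.9, 55.7, 49.8 and 56.4 normalised reads (CPM, the read count scaled to the library total with TMM factors) in WT of experiments 10, 11, 15 and 16. Clone A1 had 22.5, 23, 6.44 and 6.15 CPM in the same experiments, and 23.6 and 20.2 CPM were found for clone A2 in experiments 15 and 16. All 6 knock-out libraries lay below all 4 WT libraries, and clone A1 was lower in experiments 15 and 16 than in 10 and 11. The log2 fold change of clone A1 against WT was −3.08 in experiments 15 and 16 and −1.27 in experiments 10 and 11, a difference of −1.81 ± 0.135 (SE, edgeR adjusted p = 1.2e-06). Clone A1 was compared with WT separately in the 2 pairs of experiments, which were split by whether clone A2 was run beside them.

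Totals lay between 40077369 and 51311482 counts per library. Of 10 luminal epithelial markers 8 were in the table (KRT8, KRT18, EPCAM, CDH1, ESR1, PGR, GATA3 and FOXA1), against 2 of 6 fibroblast, 4 of 8 immune and 1 of 3 endothelial markers. The lowest count of any repair gene in any library was 349, a count that 73.3% of all genes reached in every library.

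Per length, the genes spanned a wide range of levels in WT. XRCC6 (240 CPM per kb of the canonical GENCODE transcript, mean of 4 WT libraries), PARP1 (223) and XRCC5 (108) stood at the top, and BRCA2 (2.04) and ERCC4 (2.14) at the bottom, around a median of 12.2. The abundant members are thus the Ku proteins and the main poly(ADP-ribose) polymerase, which bind broken DNA directly.

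In experiments 15 and 16, 4 of the 56 genes passed the test in clone A1 against WT, all of them lower: EXO1, BLM, PARP1 and XRCC1 (edgeR quasi-likelihood test, Benjamini-Hochberg over all genes, threshold 0.05). They make up 7.14% of the genes, while 8.24% of all 13920 genes were called in the same comparison and 4.29% were called lower. At an unadjusted p under 0.05 there were 13 of the 56 genes, or 23.2%, against 22.5% of all genes. The share of repair genes called in clone A1 was thus near that of genes in general. The same 4 genes were also lower in clone A2. Both comparisons use the same 2 WT libraries, so the clones are not independent of each other here.

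EXO1 is the exonuclease of long-range resection and also serves mismatch repair. Its level was 104, 94.4, 79.2 and 82.6 CPM in WT of experiments 10, 11, 15 and 16. It was 106, 101, 60.2 and 64.9 CPM in clone A1 of those experiments, and 59.1 and 63.8 CPM in clone A2. In experiments 15 and 16 every knock-out library was below both WT libraries, while in experiments 10 and 11 both clone A1 libraries were above the WT library of their experiment. Against WT of experiments 15 and 16, clone A1 differed by −0.37 ± 0.0752 on the log2 scale (SE, adjusted p = 0.006 in edgeR) and clone A2 by −0.40 ± 0.0751 (adjusted p = 0.00173).

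BLM is the helicase that unwinds DNA for EXO1 and DNA2 and dissolves recombination intermediates. It stood at 82.5, 70.7, 68.5 and 72 CPM in WT, at 86.6, 80, 55 and 54.9 CPM in clone A1, and at 49.4 and 50.8 CPM in clone A2, with experiments in the same order. Again the knock-out libraries of experiments 15 and 16 lay below WT without overlap and those of experiments 10 and 11 did not. On the log2 scale clone A1 differed from WT by −0.36 ± 0.0797 (edgeR adjusted p = 0.0112), and clone A2 by −0.49 ± 0.0798 (adjusted p = 0.000554).

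PARP1 detects DNA breaks and modifies proteins around them, and XRCC1 is the scaffold that gathers the enzymes of single-strand break repair at sites marked by PARP1. PARP1 had 957, 969, 798 and 824 CPM in WT, 1006, 1021, 640 and 672 CPM in clone A1, and 675 and 648 CPM in clone A2. XRCC1 had 71.1, 69.7, 56.3 and 52.9 CPM in WT, 64.3, 65.7, 44.2 and 44.1 CPM in clone A1, and 42.5 and 40.3 CPM in clone A2. Of these 2 genes, XRCC1 alone was below WT in all 4 experiments of clone A1, whereas PARP1 was above WT in experiments 10 and 11. In experiments 15 and 16 PARP1 changed by −0.31 ± 0.0596 on the log2 scale in clone A1 (adjusted p = 0.00468) and by −0.29 ± 0.0595 in clone A2 (0.00278). Those of XRCC1 were −0.30 ± 0.0702 (adjusted p = 0.0133) and −0.40 ± 0.0702 (adjusted p = 0.000975).

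The calls in clone A1 depended on single libraries. Over all genes, the clone A1 libraries of experiments 15 and 16 stood 25.2 apart by chi-square per degree of freedom. Clone A1 of experiment 16 was nearer to WT of experiments 15 and 16 (24.6 and 21.8) and to clone A2 (19.7 and 20.8). With 1 library left out, EXO1 was not called without WT of experiment 16 or clone A1 of experiment 15 (adjusted p up to 0.0823), and PARP1 was not called without WT of experiment 16 (0.0693). BLM was lost without any of the 4 compared libraries (up to 0.105) and XRCC1 without WT of experiment 15 or either clone A1 library (up to 0.16). With the experiment number as a block, 9 of the 56 genes passed in clone A1, or 16.1%, against 17.3% of all genes. The block added ERCC2 and FANCI to the lower genes, which then made up 10.7% against 8.99%, and ERCC4, PALB2 and RBBP8 as higher genes, 5.36% against 8.33%.

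**Figure D1:**
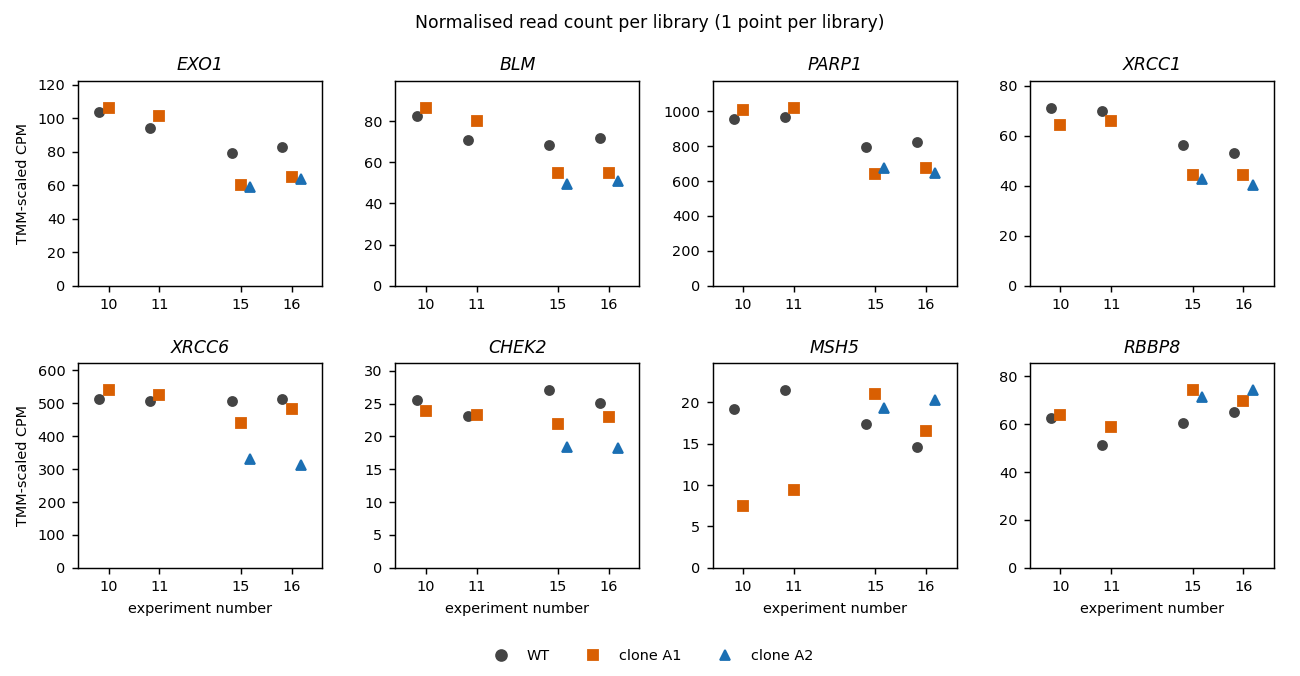
TMM-scaled CPM (vertical axis, linear, from 0) of 8 repair genes in each of the 10 libraries, by experiment number (horizontal axis), with circles for WT, squares for clone A1 and triangles for clone A2. EXO1, BLM, PARP1 and XRCC1 lie below WT in both clones in experiments 15 and 16, XRCC6 falls to 331 and 314 CPM in clone A2, and MSH5 is low only in clone A1 of experiments 10 and 11 (7.46 and 9.38 CPM).

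The promoters of the 4 genes that were lower in both clones are shown because these genes moved together. RefSeq windows of GRCh38, from 250 bases before to 50 after a start site, were given for 49 of the 56 genes. They were searched for letters typical of sites of E2F factors, which are known to drive S-phase genes. The letters were TTGGCGC and, searched in the same way, TTCGCGC. The remaining ones were TTCCCGC and, as a last motif, TTGCCGC. Both strands were read, and a motif and its reverse complement can share bases. At least 1 match was found in 30 of the 49 genes, or 61.2%, against 25.1% of 11366 genes with a window, and a match is no proof of a bound site. The 30 include PMS2 and XRCC2, which were called higher in clone A2, and genes with no call such as BRCA1, FANCD2 and TIMELESS. For comparison, TTTGAA of the cell cycle homology region was found in 14.3% of the 49 genes and 13.9% of all. The stretches printed here read in the direction of the gene, with the match in capitals, from chr1:241848199-241848225 (plus strand, across the start site), chr15:90717222-90717328 (plus strand), chr1:226408094-226408161 (minus strand) and chr19:43575602-43575708 (minus strand).
EXO1: aggtcagcctTTCGCGCgctgtgtagg
BLM: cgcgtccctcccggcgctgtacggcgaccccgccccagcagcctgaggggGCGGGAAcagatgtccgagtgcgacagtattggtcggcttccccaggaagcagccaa
PARP1: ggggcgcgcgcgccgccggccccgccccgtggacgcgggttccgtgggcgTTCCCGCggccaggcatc
XRCC1: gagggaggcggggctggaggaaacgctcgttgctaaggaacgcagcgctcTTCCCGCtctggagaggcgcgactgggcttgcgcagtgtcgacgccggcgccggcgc

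In clone A2 against WT of experiments 15 and 16, 14 of the 56 genes passed the test, 10 lower and 4 higher. They make up 25% of the genes, against 16.4% of all genes. The lower genes account for this, with 17.9% of the repair genes against 9.07% of all genes, while the higher ones stood at 7.14% against 7.33%. The difference between these shares was not tested. Beside EXO1, BLM, PARP1 and XRCC1 the lower genes were XRCC6, CHEK2, DNA2, FANCI, FANCA and UNG, and the higher ones were ERCC4, PMS2, XRCC2 and PALB2. With the block, 20 genes passed, or 35.7% against 26.4% of all genes, of which 14 were lower (25% against 14%) and 6 higher (10.7% against 12.4%). The block added ERCC1, ERCC2, MSH3 and PMS1 as lower genes and MSH5 and RBBP8 as higher ones.

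XRCC6 encodes Ku70, which with Ku80 forms the ring that holds broken ends for joining. It was at 514, 506, 507 and 512 CPM in WT, at 540, 525, 441 and 482 CPM in clone A1 and at 331 and 314 CPM in clone A2. The clone A2 libraries stood far below all 8 others. The log2 fold change of clone A2 was −0.66 ± 0.0636 against WT (edgeR adjusted p = 5.5e-06) and −0.52 ± 0.0635 against clone A1 (adjusted p = 9.82e-05), and both calls held with any 1 library left out. XRCC5, which encodes Ku80, differed from WT by −0.12 in clone A2 (adjusted p = 0.247).

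CHEK2, the checkpoint kinase downstream of ATM, had 25.6, 23.2, 27.1 and 25.1 CPM in WT, 23.9, 23.3, 21.9 and 23 CPM in clone A1 and 18.4 and 18.3 CPM in clone A2. Clone A2 was again lowest of all libraries, at −0.51 ± 0.0856 on the log2 scale against WT (edgeR adjusted p = 0.000703). Against clone A1 the value was −0.29 ± 0.0862 (adjusted p = 0.0724, and 0.0194 with the block). CHEK2 and XRCC6 have near-identical copies elsewhere in the genome, which makes their counts less certain.

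The nuclease and helicase DNA2, which works with BLM in resection, stood at 58.1, 48.5, 50.7 and 58.9 CPM in WT, at 63.3, 57.4, 54 and 53 CPM in clone A1 and at 42.5 and 46.4 CPM in clone A2. FANCI, which with FANCD2 forms the complex that is ubiquitinated at crosslinks, had 256, 207, 175 and 186 CPM in WT, 244, 241, 154 and 152 CPM in clone A1 and 148 and 151 CPM in clone A2. FANCA, a part of the ligase that ubiquitinates it, had 88.8, 95.3, 90 and 89.2 CPM in WT, 91.5, 92.5, 81.2 and 86.2 CPM in clone A1 and 77.7 and 75.8 CPM in clone A2. For these 3 genes clone A2 was below every WT library. The log2 fold changes of clone A2 were −0.30 ± 0.0954 for DNA2 (edgeR adjusted p = 0.0399), −0.28 ± 0.0813 for FANCI (0.0281) and −0.22 ± 0.0678 for FANCA (0.0326). The uracil glycosylase UNG differed by −0.20 (adjusted p = 0.044).

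ERCC4 encodes XPF, a nuclease subunit of nucleotide excision and crosslink repair. It had 16.3, 12.8, 13.9 and 15 CPM in WT, 14.2, 14.2, 16.4 and 18.7 CPM in clone A1 and 19.5 and 21.9 CPM in clone A2. Of the 56 genes it rose most in clone A2, by 0.51 ± 0.115 on the log2 scale (edgeR adjusted p = 0.00547). In clone A1 its difference was 0.28 (adjusted p = 0.163, and 0.039 with the block). XRCC2, which serves homologous recombination, had 48, 43.2, 43.4 and 48.1 CPM in WT, 42.9, 45.6, 49 and 52 CPM in clone A1 and 55.8 and 53.3 CPM in clone A2. PMS2, the endonuclease subunit of mismatch repair, had 47.9, 46, 48.5 and 50.8 CPM in WT, 49.4, 50.5, 53.7 and 48.9 CPM in clone A1 and 56.3 and 61.5 CPM in clone A2. Both were higher in clone A2 than in any WT library, with log2 fold changes of 0.25 ± 0.0807 (adjusted p = 0.0419) and 0.25 ± 0.0758 (adjusted p = 0.0356). PMS2 has near-identical pseudogene copies, which makes its counts less certain. PALB2, which links BRCA1 to BRCA2, rose by 0.27 (adjusted p = 0.0446).

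With each of the 10 libraries left out in turn, the calls of BLM, CHEK2, EXO1, XRCC1 and XRCC6 in clone A2 held every time. PARP1 was lost without clone A2 of experiment 16 (adjusted p = 0.0531), and ERCC4 without that library or WT of experiment 15 (up to 0.0817). FANCI was lost without any of the 4 compared libraries (up to 0.188). The other 6 calls were lost without 5 to 8 of the 10 libraries, libraries outside the compared groups among them, with adjusted p-values up to 0.353 for DNA2. Without clone A2 of experiment 16, 5 genes were called.

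**Figure D2:**
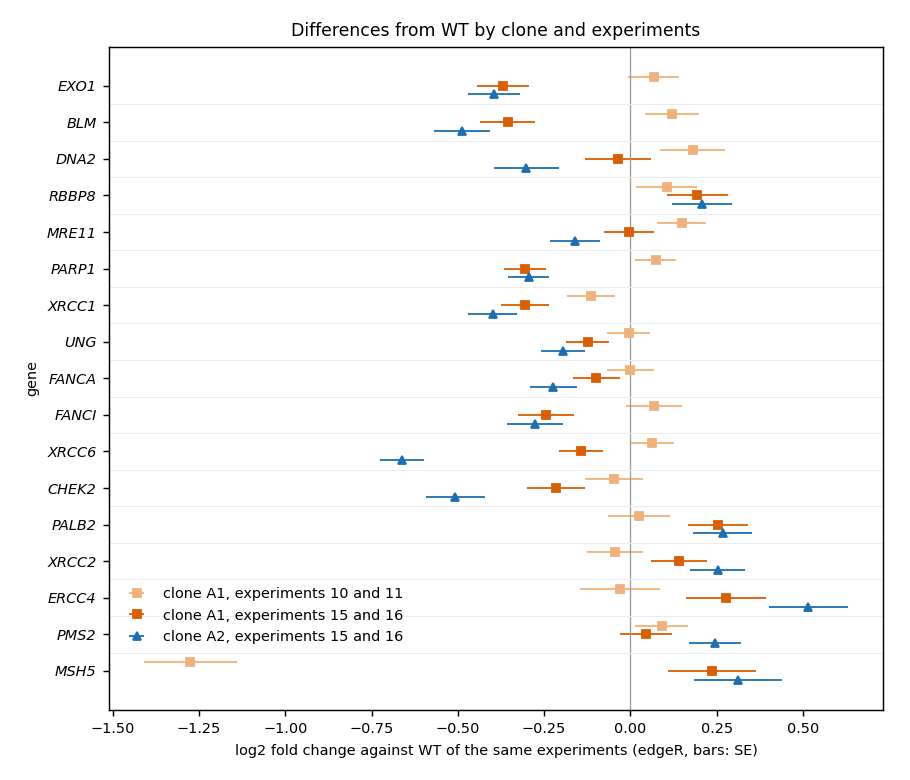
Log2 fold change against WT of the same experiments (horizontal axis, edgeR, bars show SE) for 17 repair genes, with pale squares for clone A1 in experiments 10 and 11, dark squares for clone A1 in experiments 15 and 16 and triangles for clone A2 in experiments 15 and 16. EXO1 (−0.37 and −0.40), BLM and PARP1 lie left of 0 in experiments 15 and 16 and right of it in experiments 10 and 11, and MSH5 lies at −1.27 in the latter.

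The factors that SAMHD1 is known to work with did not pass the test. RBBP8 had 62.7, 51.3, 60.6 and 65.3 CPM in WT, 63.9, 58.7, 74.3 and 69.8 CPM in clone A1 and 71.2 and 74.2 CPM in clone A2. Each clone A1 library was above WT of its own experiment, and in experiments 15 and 16 the 4 knock-out libraries lay above both WT libraries. RBBP8 differed from WT by 0.19 ± 0.0884 in clone A1 (log2, edgeR adjusted p = 0.202) and by 0.21 ± 0.0882 in clone A2 (adjusted p = 0.125). With the block RBBP8 passed in both clones (adjusted p = 0.0352 and 0.0166).

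MRE11 had 82.9, 73, 80.3 and 82.3 CPM in WT, 85, 87.7, 81.1 and 81 CPM in clone A1 and 73.3 and 72.3 CPM in clone A2. The clone A1 libraries of experiments 15 and 16 lay within the range of WT and those of clone A2 below WT of the same experiments. In experiments 15 and 16 MRE11 differed from WT by −0.0046 in clone A1 (log2, adjusted p = 0.983) and by −0.16 in clone A2 (adjusted p = 0.149). RAD50 and NBN, which form a complex with MRE11, differed by −0.07 and −0.08 in clone A1 and by 0.09 and 0.03 in clone A2 (adjusted p of 0.465 to 0.851). Of the 8 resection genes 2 were lower in clone A1 and 3 in clone A2 (against 4.29% and 9.07% of all genes). RBBP8 with the block was the 1 that passed as higher (12.5% in both clones, against 8.33% and 12.4% of all genes). The medians of the 8 were −0.05 and −0.11 against 0.00 and 0.01 over all genes. In experiments 10 and 11 their median in clone A1 was 0.12, with 0 of 8 below 0, against 50.1% of all genes.

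The values by role given next are from experiments 15 and 16 unless stated otherwise. By role, the 6 genes of base excision and single-strand break repair had the lowest medians there, −0.16 in both clones. Of these genes 2 were called lower in clone A1 and 3 in clone A2, where 4.29% and 9.07% of all genes were called lower. All 6 were below 0 in clone A1 of experiments 15 and 16 and 5 of 6 in clone A2, where OGG1 was at 0.07. In clone A1 of experiments 10 and 11, 3 of the 6 were below 0 and their median was 0.005. The lowest median by role in that comparison was −0.02, for nucleotide excision repair genes. Homologous recombination genes had medians of 0.00 and 0.07, with PALB2 and XRCC2 called higher in clone A2 (20% of the 10 genes, against 7.33% of all genes) and none in clone A1 (against 3.95%). With the block PALB2 was called higher in clone A1 as well (10% against 8.33%). BRCA1 (−0.03 and 0.07) and BRCA2 (0.02 and 0.10) did not pass in either clone. Among checkpoint and fork protection genes CHEK2 in clone A2 was the 1 call in these comparisons, or 9.09% of the 11 genes called lower against 9.07% of all genes, and ATM, ATR, CHEK1, TOPBP1 and TIMELESS lay between −0.14 and 0.13. The medians over all 56 genes were −0.04 in clone A1 and −0.02 in clone A2.

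**Figure D3:**
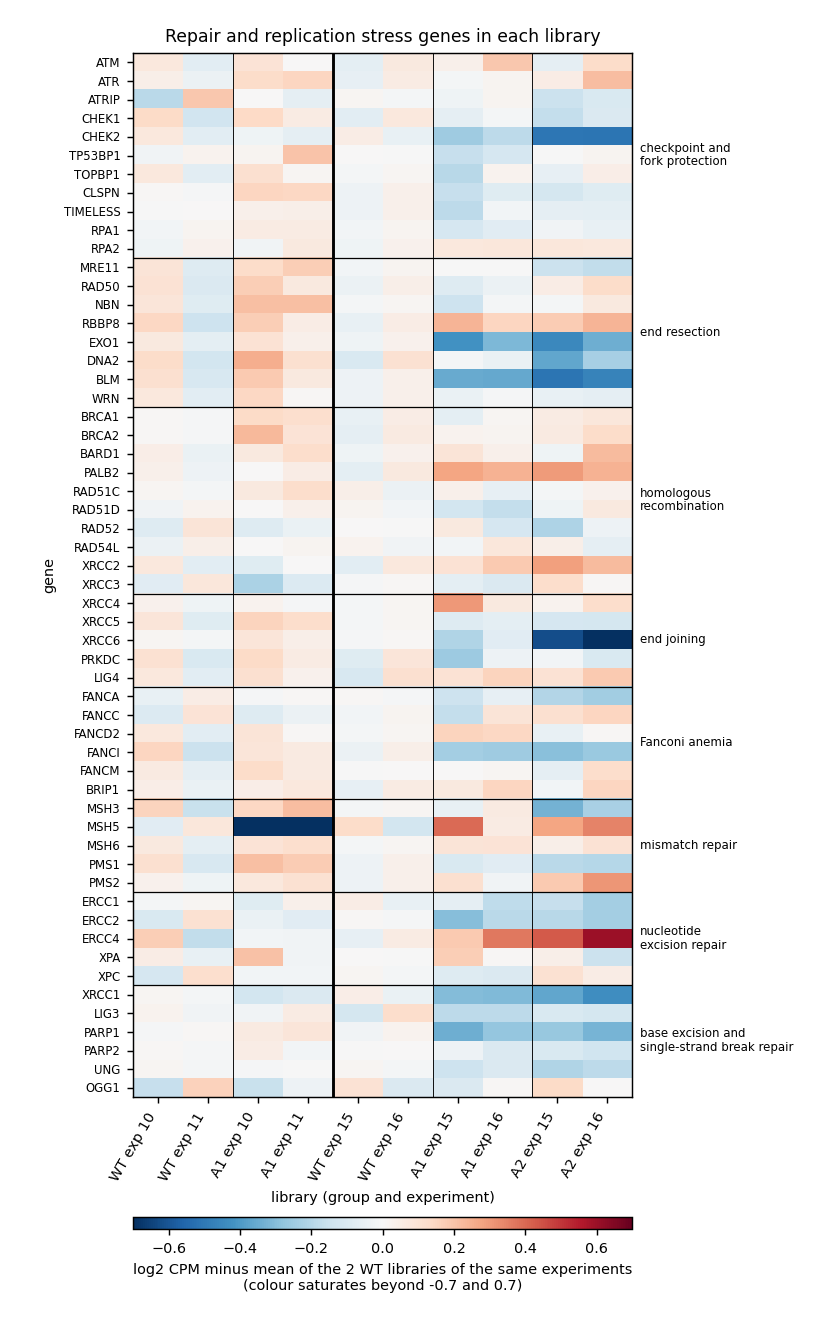
Log2 CPM of each of the 56 genes (rows, grouped by role) in each library (columns), minus the mean of the 2 WT libraries of the same pair of experiments, on a colour scale that saturates at −0.7 and 0.7. Most rows are pale, and the darkest cells are MSH5 in clone A1 of experiments 10 and 11 and XRCC6, CHEK2, ERCC4 and BLM in clone A2, the genes with a cell beyond 0.5 in either direction (8 cells in all). ERCC4 is the 1 of these that is higher.

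Between the clones, 1 of the 56 genes passed the test, XRCC6, which was lower in clone A2. This is 1.79% of the genes, against 4.14% of all genes called and 3.07% called lower. With the block CHEK2, DNA2 and MSH3 were lower in clone A2 as well, so that 7.14% were called, against 8.71% of all genes called and 5.26% called lower. MSH3, a mismatch recognition subunit, differed between the clones by −0.28 ± 0.0956 (edgeR adjusted p = 0.127, and 0.0262 with the block).

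In experiments 10 and 11, 1 of the 56 genes passed in clone A1 against WT, or 1.79%, against 0.194% of all genes called and 0.165% called lower. With the block the call was the same and the share of all genes 2.74%. The gene was MSH5, a MutS homolog known for its work in meiotic recombination. MSH5 had 19.2, 21.5, 17.4 and 14.6 CPM in WT, 7.46, 9.38, 21 and 16.6 CPM in clone A1 and 19.3 and 20.2 CPM in clone A2. The clone A1 libraries of experiments 10 and 11 were the lowest of all 10, and in experiments 15 and 16 clone A1 was above WT of its own experiment. The log2 fold change was −1.27 ± 0.134 in experiments 10 and 11 (edgeR adjusted p = 0.000151) and 0.24 ± 0.129 in experiments 15 and 16 (adjusted p = 0.297), and the call held with any 1 library left out.

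MSH5 lies at chr6:31740005-31762676 in GRCh38 and overlaps the start of SAPCD1, with which it forms read-through transcripts. SAPCD1 had 0.087 to 1.49 CPM, so its own reads were few beside those of MSH5. In clone A1 of experiments 10 and 11 the log2 fold change of SAPCD1 was −3.17 with an SE of 0.815 (adjusted p = 0.22 in edgeR, and 0.0145 with the block), on 0.26 and 1.49 CPM in WT and 0.104 and 0.087 CPM in clone A1. CLIC1, the neighbour before MSH5, had a log2 fold change of 0.00 there. The overlapping neighbour thus had a value in the direction of MSH5, and CLIC1 did not.

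The other genes did not pass in experiments 10 and 11. The median over the 56 genes was 0.06 (all genes 0.00), with 15 of 56 below 0, and 4 genes had an unadjusted p under 0.05 (CLSPN, MSH5, NBN and PMS1), or 7.14% against 10.6% of all genes. Leaving out WT of experiment 10 raised the count to 8 genes, with DNA2, FANCI, MRE11, MSH3, NBN, PMS1 and XRCC5 added, and the count over all genes to 1361. The 2 WT libraries of this pair stood apart from each other. By chi-square per degree of freedom over all genes, WT of experiment 10 was nearer to clone A1 of experiments 10 and 11 (10.1 and 8.51) than to WT of experiment 11 (25.1). The mean log2 CPM of the 56 genes was 5.980 and 5.924 in WT of experiments 10 and 11 and 5.985 and 5.979 in clone A1, so that WT of experiment 11 was lowest. That library was also lowest in hypoxia genes, with a mean log2 CPM of 6.925 against 7.196 to 7.613 in the 9 others, and the part of this in the values of experiments 10 and 11 was not tested. Clone A1 lay on 1 side of WT in all 4 experiments in 12 of the 56 genes, or 21.4%, against 23.7% of all genes. Of these, 10 were higher (ATM, BARD1, BRIP1, FANCD2, FANCM, LIG4, MSH6, RBBP8, RPA2 and XPA), or 17.9% against 11.6%, and XRCC1 and XRCC3 were lower, or 3.57% against 12.1%.

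The clone A1 effect itself was compared between the 2 pairs of experiments. It differed in 4 of the 56 genes, or 7.14%, against 2.5% of all genes. A lower effect was found for 3 genes (5.36% against 0.941%) and a higher one for 1 (1.79% against 1.56%). EXO1 (−0.44 ± 0.105, edgeR adjusted p = 0.0363), BLM (−0.48 ± 0.112, adjusted p = 0.0323) and PARP1 (−0.38 ± 0.0841, adjusted p = 0.0232) were lower against WT in experiments 15 and 16 than in 10 and 11. MSH5 (1.51 ± 0.185, adjusted p = 0.000261) went the other way. The calls of EXO1 and BLM were lost with 7 of 10 libraries left out in turn (adjusted p up to 0.205) and that of PARP1 with 5 of 10 (up to 0.146), among them all 4 clone A1 libraries for EXO1 and BLM. With the block CLSPN, FANCI and NBN also passed, so that 12.5% were called against 8.96% of all genes. The SAMHD1 level of clone A1 changed between the same pairs of experiments, and the 2 cannot be told apart.

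The 4 knock-out libraries of experiments 15 and 16 lay on 1 side of both WT libraries in 23 of the 56 genes, or 41.1%, against 35.4% of all genes. Of these, 16 were lower, or 28.6% against 17.4%, and 7 were higher (ERCC4, MSH6, PALB2, RBBP8, RPA2, XRCC2 and XRCC4), or 12.5% against 18%. The 16 lower genes reached beyond the calls to CLSPN, which mediates ATR signalling, the RPA subunit RPA1, PARP2, XRCC5, ERCC1, ERCC2 and PMS1. The mean log2 CPM of the 56 genes was 5.903 and 5.942 in WT of experiments 15 and 16, 5.872 and 5.896 in clone A1 and 5.858 and 5.888 in clone A2. These means lay close together, with the 4 knock-out libraries below both WT libraries.

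For some of the called genes, other genes of the same chromosome stretch were shifted as well. In stretches of 20 Mb with at least 20 genes, the median log2 fold change of clone A2 against WT was below −0.15 in 13 of 154 stretches and above 0.15 in 15. For clone A1 in experiments 15 and 16 these counts were 9 and 11. Of the 56 genes 11 lay in such a stretch for clone A2 and 8 for clone A1. They include 9 of the 14 genes called in clone A2 and 3 of the 4 called in clone A1. The share of all called genes that lay in such stretches is not given here. DNA2 (0.02), FANCA (0.04), UNG (0.04), PMS2 (0.03) and EXO1 (−0.12) were called in clone A2 in stretches whose medians did not reach 0.15 in either direction.

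On chromosome 22 the stretch of XRCC6 had a median of −0.55 in clone A2 and that of CHEK2 −0.45, against −0.02 and 0.04 in clone A1. The stretch of PARP1 on chromosome 1 stood at −0.26 in clone A1 and −0.30 in clone A2, that of BLM and FANCI on chromosome 15 at −0.18 and −0.20, and that of XRCC1 on chromosome 19 at −0.17 and −0.15. Stretches of higher genes were at 0.25 for PALB2, 0.23 for XRCC2 and 0.19 for ERCC4 in clone A2. For PARP1, XRCC6, CHEK2, FANCI, PALB2 and XRCC2 the gene's own change in clone A2 was thus close to that of its neighbours.

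With the median of the stretch removed from each library (limma-trend), EXO1 alone passed in clone A1, at −0.26, which is 1.79% of the genes against 5.45% of all genes called and 2.52% called lower. In clone A2, 7 of the 56 genes passed, all lower, or 12.5% against 10.6% of all genes called and 5.75% called lower. EXO1 (−0.28), BLM (−0.29), XRCC1 (−0.23), DNA2 (−0.30), FANCA (−0.26) and UNG (−0.22) remained and MSH3 (−0.28) was added. XRCC6 came to −0.0924 (adjusted p = 0.402), CHEK2 to −0.0435 (0.821), PARP1 to 0.00571 (0.968), FANCI to −0.0792 (0.631), PALB2 to 0.0122 (0.958) and XRCC2 to 0.0203 (0.91). The calls of PMS2 and ERCC4 were lost at values further from 0, 0.22 (adjusted p = 0.0662) and 0.32 (0.142). Between the clones none of the 56 passed, against 2.41% of all genes, and 9 had an unadjusted p under 0.05 in limma-trend, or 16.1% against 15.5%. CHEK2, at −0.29 between the clones before, came to 0.19 there. MSH5 was the 1 call both in experiments 10 and 11 (against 0.223%) and for the difference between the pairs of experiments (against 1.95%). In that difference EXO1 came to −0.32 (adjusted p = 0.102), BLM to −0.27 (0.299) and PARP1 to −0.0750 (0.742). Whether the stretches account for the genes' changes was not tested.

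**Figure D4:**
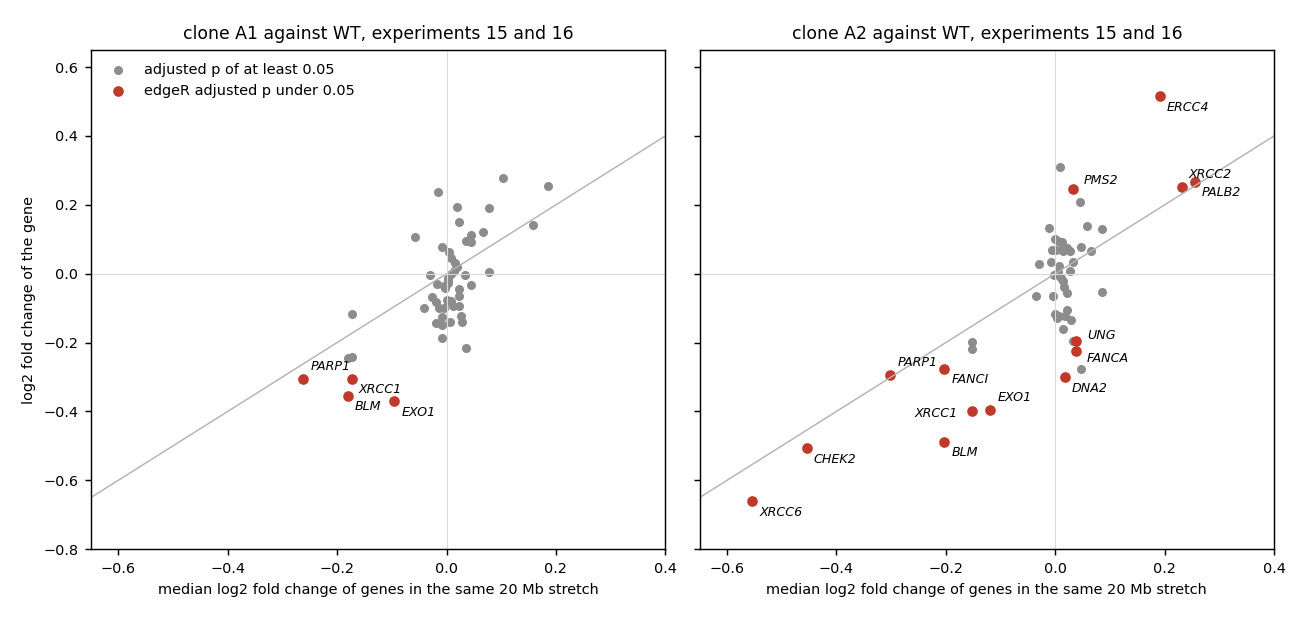
Log2 fold change of each of the 56 genes (vertical axis) against the median log2 fold change of the genes in its 20 Mb stretch (horizontal axis), for clone A1 (left) and clone A2 (right) against WT in experiments 15 and 16, with red points for edgeR adjusted p under 0.05 and the grey diagonal where both are equal. PARP1, XRCC2 and PALB2 lie on the diagonal and XRCC6 near it in clone A2, while BLM, EXO1, XRCC1, DNA2, FANCA and UNG lie below it.

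Other gene lists were measured beside the repair genes. Of 36 proliferation genes 3 were lower and 0 higher in clone A1 of experiments 15 and 16. At an unadjusted p under 0.05 in edgeR there were 6 of the 36, against 22.5% of all genes. In clone A2, 8 were lower and 1 higher, and the medians were −0.03 in clone A1 and −0.09 in clone A2. With the block 5 were lower in clone A1, and 9 lower and 1 higher in clone A2. The lower ones were 8.33% and 22.2% of the list, against 4.29% and 9.07% of all genes, and with the block 13.9% and 25%, against 8.99% and 14%. Their summed level was 6632 and 6720 CPM in WT of experiments 15 and 16, 6251 and 6457 in clone A1 and 6168 and 6181 in clone A2. In RNA of whole spheroids, fewer cells in S phase and less RNA per cell cannot be told apart, and the part of proliferation in the values above was not tested.

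Of 19 hypoxia genes 3 were higher in clone A1 and 1 in clone A2 and none lower, with medians of 0.21 and 0.15. With the block 7 were higher in clone A1, and 8 were higher and 1 lower in clone A2. All 19 were above 0 in clone A1, and 5 of 19 were below 0 in clone A2. The higher ones were 15.8% and 5.26% of the list, against 3.95% and 7.33% of all genes, and with the block 36.8% and 42.1%, against 8.33% and 12.4%. Hypoxia genes thus had higher medians than the repair genes in both clones, and their part in the values above was not tested either.

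Of 92 repair genes outside the list, with SAMHD1 counted among them, 4 were lower in clone A1 of experiments 15 and 16 and none higher, and 7 and 2 with the block. The lower ones were 4.35% of the list against 4.29% of all genes, and 7.61% against 8.99% with the block. They included SAMHD1, TIPIN, which works with TIMELESS at replication forks (−0.35, edgeR adjusted p = 0.0099), and the ligase LIG1 (−0.28, 0.0408). In clone A2, 8 were lower and 2 higher, and 13 and 8 with the block. The lower ones were 8.7% against 9.07% of all genes (14.1% against 14% with the block) and the higher ones 2.17% against 7.33% (8.7% against 12.4%), so the shares of lower genes were near those of genes in general. Those with the smallest p-values included SAMHD1, TIPIN (−0.41, 0.00183), SFR1 (−0.45, 0.00312) and LIG1 (−0.33, 0.00885). Between the clones SAMHD1 and RTEL1 (0.34, 0.046) were higher and SFR1 (−0.39, 0.0201) lower in clone A2. The higher ones were 2.17% and the lower one 1.09% of the list, against 4.14% of all genes called and 3.07% called lower. In experiments 10 and 11 SAMHD1 was the 1 call, or 1.09% called lower against 0.165% of all genes. The clone A1 effect differed between the pairs of experiments for SAMHD1 and TIPIN (−0.46, 0.033), or 2.17% called lower against 0.941% of all genes. TIPIN thus resembled EXO1 and BLM in being lower in both clones of experiments 15 and 16 and not in experiments 10 and 11. The stretches of these genes had medians in clones A1 and A2 of −0.18 and −0.19 for TIPIN, −0.17 and −0.15 for LIG1, −0.12 and −0.16 for SFR1, −0.03 and 0.06 for RTEL1 and −0.01 and 0.01 for SAMHD1. Those of TIPIN and LIG1 were thus beyond 0.15 in both clones, that of SFR1 in clone A2 alone and those of RTEL1 and SAMHD1 in neither.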

How the data were processed

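Stranded mRNA libraries of T47D spheroids were sequenced by the authors, aligned with HISAT2 to GRCh38 (NCBI annotation) and counted on genes. The submitters' processing notes also name StringTie, and the counting program and its strand setting are not given in the sources used here. The deposited values are raw read counts per NCBI gene, from which the authors had removed genes with a count of 0 in any library. Labels and methods name different RNA extraction kits.

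Symbols and positions were matched for 13885 of 13920 genes. Counts were scaled by TMM (factors 0.976 to 1.04) and fitted with edgeR 4.0.16 in R 4.3.3 (robust quasi-likelihood) as 5 groups of 2 libraries, which leaves 5 residual degrees of freedom, with Benjamini-Hochberg adjustment over all genes and a threshold of 0.05. Contrasts stayed within experiments 10 and 11 or 15 and 16. The genes, lists and the rule for naming genes (those past the threshold, up to 12 per comparison by smallest p with values in every library, RBBP8 and MRE11 always, and up to 5 other repair genes) were chosen with earlier results of these data known. Some genes that the rule names, and 1 gene list, are not reported here. CPM per kb used GENCODE canonical transcript lengths.

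Alternatives were DESeq2 1.42.0, limma-trend 3.58.1, RLE scaling, a filter on mean counts (10 or more), a replicate block by experiment, the compared experiments alone, regional medians removed and each library left out in turn. The labels call the shared number an experiment, so libraries of 1 number were taken as paired. Within-pair differences correlated over all genes at 0.0844 and 0.134 (WT and clone A1, experiments 10 and 11, and 15 and 16), 0.151 (WT and clone A2) and 0.104 (both clones). All 45 pairs of libraries were further apart than counting alone gives, with chi-square values of 6.74 or more per degree of freedom. The methods were tested on simulated data.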

Additional observations from a re-analysis of the deposited data

Results flagged for a closer look

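The effect of clone A1 against WT differed between experiments 15 and 16 and experiments 10 and 11 by an edgeR test of the difference itself for EXO1 (−0.44 on the log2 scale, adjusted p = 0.0363), BLM (−0.48, 0.0323), PARP1 (−0.38, 0.0232), MSH5 (1.51, 0.000261) and SAMHD1 (−1.81, 1.2e-06). EXO1, BLM and PARP1 were lower than WT only in the later pair of experiments, and MSH5 was lower only in the earlier one. With regional medians removed (limma-trend) the calls of EXO1 (−0.32, adjusted p = 0.102), BLM (−0.27, 0.299) and PARP1 (−0.0750, 0.742) ended and that of MSH5 held. EXO1 and BLM were also lost with 7 of 10 libraries left out in turn, and PARP1 with 5 of 10.

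The FANCD2 level of clone A1 in experiment 11, at 97.4 CPM, stood apart from the 3 other clone A1 libraries, which all rounded to 103 or 104 CPM. It was the 1 case among 112 groups of 4 libraries, a test that chance passes in about 1 of 20 groups.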

How the results depend on the processing

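DESeq2, limma-trend, RLE scaling and the filter on mean counts left the number of repair genes called within 1.5 times in every comparison, while DESeq2 called 63 genes in experiments 10 and 11 and 533 for the difference of the clone A1 effect, against 27 and 348 with edgeR. With the replicate block the repair genes called were 9 (clone A1, experiments 15 and 16), 20 (clone A2), 4 (clone A2 against clone A1), 1 (experiments 10 and 11) and 7 (difference), and all genes called were 2411, 3673, 1213, 382 and 1247, against 1147, 2283, 576, 27 and 348. The block ended no call among the 56 genes. With the compared experiments alone, 1834 genes were called for clone A1, 12 in experiments 10 and 11, and 3 and 2 repair genes between the clones and for the difference, where EXO1 (adjusted p = 0.052) and BLM (0.0515) were lost. PALB2 in clone A2 was lost with DESeq2 (0.0508).

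With regional medians removed the repair genes called were 1, 7, 0 (9 at an unadjusted p under 0.05), 1 and 1 in the same order of comparisons, and the genes called 759, 1471, 335, 31 and 271. Signs turned for 26 of the 280 values of the 56 genes, of which 6 had been beyond 0.1 in either direction. These were PARP1 in clone A2 (0.00571), XRCC6 (0.0318) and CHEK2 (0.19) between the clones, ERCC1 (0.0626) and XRCC2 (−0.0288) in clone A1 of experiments 15 and 16 and PALB2 in the difference (−0.0583). RBBP8 between the clones came to −0.00236. The cause was not tested.

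Over the 10 libraries left out in turn, the repair genes called ranged from 1 to 7 (clone A1), 5 to 19 (clone A2), 1 to 4 (between the clones), 1 to 8 (experiments 10 and 11) and 1 to 8 (difference), and all genes called from 343 to 2000, 1020 to 3199, 268 to 959, 7 to 1361 and 88 to 1123. A group left with 1 library was assumed to vary like the others. Without 1 library, signs turned for MRE11 in clone A1 of experiments 15 and 16 (−0.0202 to 0.0131) and for RBBP8 between the clones (−0.0308 to 0.0578), in experiments 10 and 11 (−0.0317 to 0.25) and in the difference (−0.0563 to 0.226). With 2 libraries a group, a p-value above the threshold does not show that values were alike.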
